A study of Mus musculus with 12 samples.

Results

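The 10 genes described are the FOS, JUN and EGR immediate early factors Fos, Fosb, Fosl1, Fosl2, Jun, Junb, Jund, Egr1, Egr2 and Ier2, out of 19938 genes tested. They were chosen by gene symbol, with the transcript cluster of highest mean to represent a gene, and each of the 10 had 1 cluster annotated to it alone. Levels were followed in NIH3T3, a mouse fibroblast line, during exposure to difluoromethylornithine (DFMO). DFMO inhibits ornithine decarboxylase and so lowers cellular polyamines, and the question was how transcription responds to that loss. There were 3 arrays of untreated cells (0 h), 2 after 12 h, 3 after 24 h, 2 after 48 h and 2 after 96 h in 1 mM DFMO. All cells were grown in serum, received DFMO a day after seeding where treated, and were sorted for the G1 fraction before RNA was made. Untreated cells of the later times were not analysed here, so exposure to DFMO and time in culture cannot be told apart in any comparison. RNA came from many cells together, so fewer cells of a kind and less RNA per cell cannot be told apart either.

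FOS and JUN proteins pair through leucine zippers to form AP-1, a transcription factor that binds the TGANTCA element. JUN proteins can pair with each other, whereas FOS proteins need a JUN or related partner. EGR proteins are zinc finger factors that bind GC-rich sites. Serum, growth factors and stress induce most of these genes within minutes, through kinases that act on factors already bound to their promoters, and the transcripts decay quickly. In fibroblasts they are the first genes to respond when serum is given back to resting cells.

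Array medians were 4.13 to 4.2 log2 units, which the normalisation makes alike, and replicates correlated across genes with r of 0.994 to 0.998. Of 15 fibroblast markers measured, 13 had mean untreated levels of 7.67 log2 units or more, and Postn and Dcn lay at 3.88 and 3.72. The 19 leukocyte markers had a median untreated level of 3.63 (range 3.30 to 4.39), and the defining marker Ptprc lay at 3.36. The 9 endothelial markers lay between 3.37 and 3.76 untreated. Of 11 epithelial markers 10 lay at 4.04 or below, and Krt14 lay at 8.83. At 96 h 1 of 19 leukocyte markers was called, Lyz2, with 6.25 at 96 h against 4.34 untreated, and the array means of that list ran from 3.78 to 3.79 at 96 h against 3.70 to 3.71 untreated. Of the other markers, 2 of 15 fibroblast markers rose and 7 fell at 96 h. Of the 11 epithelial markers 1 rose and 1 fell, and of the 9 endothelial markers 1 rose. Beside these counts and that of the leukocyte markers, 11.8% of all genes rose and 10.1% fell at 96 h. The part of the markers in the results was not tested. Levels of low transcripts include array background. The 90th percentile of the untreated leukocyte markers, 4.04, is used below as a mark of that background.

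Jun was higher at 48 h and 96 h, and Egr2 at 96 h, while Fos, Fosb, Fosl1, Fosl2, Junb, Jund, Egr1 and Ier2 did not pass the test against untreated cells at any time. Each time was compared with untreated cells by a linear model over all 12 arrays (limma, two-sided, p adjusted by Benjamini and Hochberg over all 19938 genes), with an adjusted p under 0.05 taken as a call. At 48 h 1 of 10 members rose and 0 fell, against 5.82% of all genes called (2.65% higher and 3.17% lower), and 3 members and 19.8% of genes had an unadjusted p under 0.05. At 96 h 2 of 10 rose and 0 fell, against 21.9% of all genes called (11.8% higher and 10.1% lower), and 4 members and 30% of genes had an unadjusted p under 0.05. The share of members called at 96 h is thus close to that of all genes. No gene of the 19938 was called by limma at the earlier times (0% each). An unadjusted p under 0.05 was found for 1 member and 741 genes (3.72%) at 12 h, and for 2 members and 1579 genes (7.92%) at 24 h. The median log2 change of the 10 members was 0.14, 0.00, 0.07 and 0.26 at 12, 24, 48 and 96 h, beside -0.01, -0.02, -0.02 and 0.00 over all genes.

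**Figure D1:**
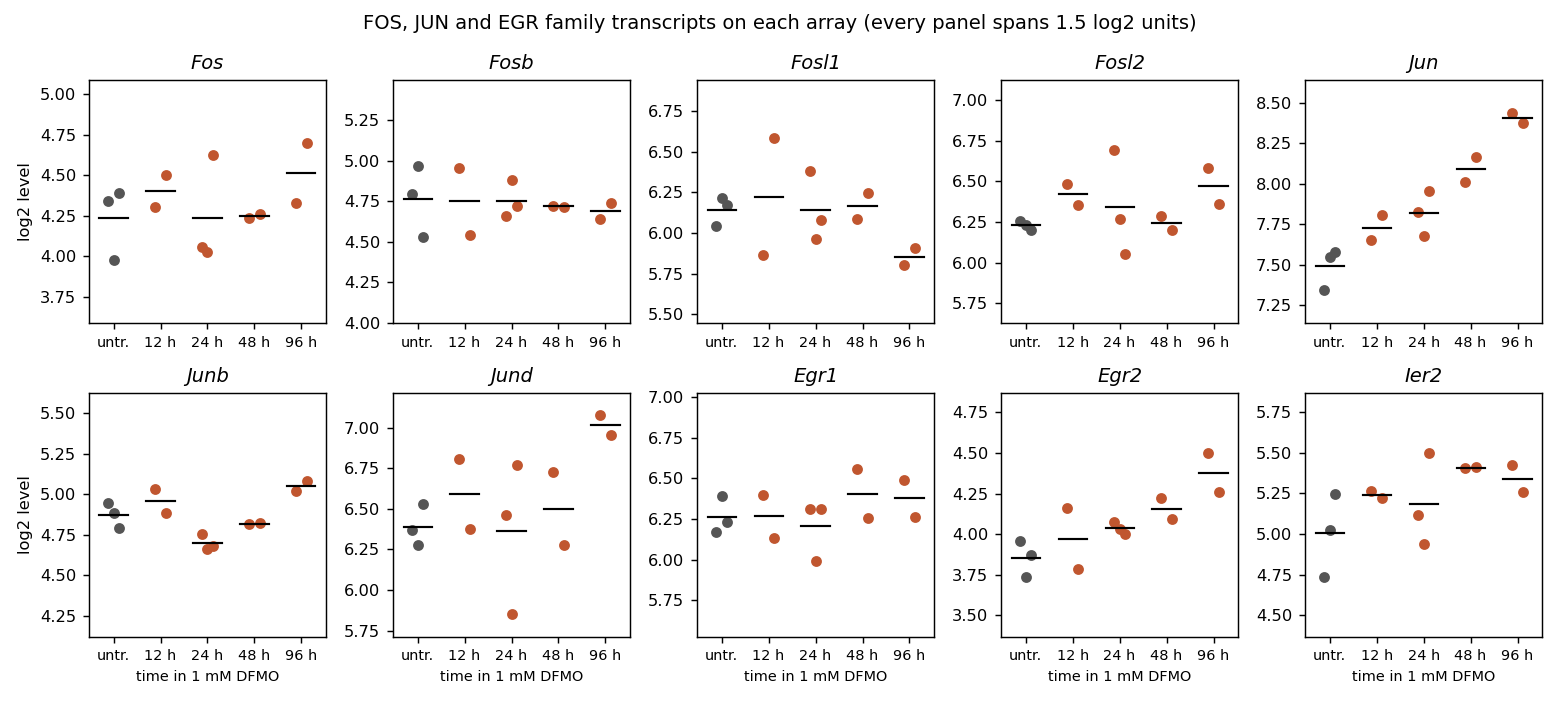
Log2 level of each of the 10 genes (y axis, 1.5 log2 units in every panel) on each array (points) in untreated cells and at 12, 24, 48 and 96 h in 1 mM DFMO, with group means as bars. Jun climbs from group to group and its arrays at 96 h (8.38 and 8.44) lie above all others, whereas Fos and Fosb at 96 h overlap the untreated arrays.

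The promoter windows of Jun and Egr2, the called members, and of Fos, the founding gene of the family, show which elements lie near each start. They are RefSeq sequences of assembly GRCm38.p6 covering 250 bases before to 50 after the annotated start, found for 7 of the 10 members, and the ones shown lie at chr4:95052173-95052472 on the minus strand (Jun), chr10:67537619-67537918 on the plus strand (Egr2, window 3 of its 5 annotated starts, chosen after the motifs were seen) and chr12:85473640-85473939 on the plus strand (Fos). Capitals mark motif matches on either strand.
Jun: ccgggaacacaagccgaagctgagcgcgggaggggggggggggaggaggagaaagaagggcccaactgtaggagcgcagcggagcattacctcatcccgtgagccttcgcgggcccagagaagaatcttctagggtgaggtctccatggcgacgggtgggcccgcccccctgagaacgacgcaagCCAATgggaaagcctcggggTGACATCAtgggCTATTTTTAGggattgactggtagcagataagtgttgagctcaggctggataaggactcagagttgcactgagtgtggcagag
Egr2: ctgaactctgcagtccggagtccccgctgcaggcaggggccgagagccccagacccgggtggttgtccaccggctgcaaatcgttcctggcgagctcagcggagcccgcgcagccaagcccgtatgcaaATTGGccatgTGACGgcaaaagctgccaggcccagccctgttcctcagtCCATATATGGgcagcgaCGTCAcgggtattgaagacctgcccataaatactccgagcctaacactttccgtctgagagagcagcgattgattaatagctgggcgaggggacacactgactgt
Fos: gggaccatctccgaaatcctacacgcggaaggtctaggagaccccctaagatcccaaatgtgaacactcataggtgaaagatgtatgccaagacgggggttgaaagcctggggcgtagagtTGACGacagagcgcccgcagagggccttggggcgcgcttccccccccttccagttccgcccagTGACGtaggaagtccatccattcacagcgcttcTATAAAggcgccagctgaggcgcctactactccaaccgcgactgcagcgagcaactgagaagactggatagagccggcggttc

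Of the motifs searched in these windows, the Jun window held the AP-1-like octamer TGACNTCA, 45 bases before the start, which 8.83% of all 32851 mouse windows hold. It also held a MEF2 site, 33 bases before the start (0.557% of windows), and a CCAAT box, 65 bases before it (37.4%). JUN is known in human cells to stimulate its own promoter through an octamer of this kind. The Egr2 window held a CArG box, the element bound by serum response factor, 72 bases before the start (1.63% of windows), with the core TGACG of the cyclic AMP element (20.8%) on both sides of it and a CCAAT box read on the opposite strand. Of the other Egr2 windows, numbered along the strand, windows 4 and 5 held the same elements farther from the start, window 2 held only another CArG box, and window 1 held none of the motifs. The Fos window held that core 129 and 66 bases before the start, and a TATA box (TATAAA, 13.6%) 33 bases before it. The strict AP-1 site TGANTCA (7.81% of windows) was in none of the 3 shown, nor was the EGR site GCGNGGGCG (5.55%), which was found in the windows of Fosb and Fosl2. The octamer can contain the core, though no such overlap occurs here. A match is a description of the letters and not evidence of binding.

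Among the JUN genes, whose proteins can also act without a FOS partner, Jun (transcript cluster 10514466) changed most. Its log2 levels were 7.34, 7.55 and 7.58 untreated, 7.65 and 7.81 after 12 h, 7.83, 7.68 and 7.96 at 24 h, 8.01 and 8.17 after 48 h, and 8.44 and 8.38 at 96 h. The treated arrays of every time lay above all 3 untreated arrays, and the groups at 48 h and 96 h overlapped with neither each other nor any earlier group. Jun rose by 0.60 ± 0.10 at 48 h (log2, SE, 1.51-fold, limma adjusted p = 0.0101, n = 2 against 3). At 96 h it rose by 0.92 ± 0.10 (1.89-fold, 95% confidence interval 1.61 to 2.20, limma adjusted p = 0.000159, n = 2 against 3). By size this was the 635th largest rise among the 19938 genes at 96 h.

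At 12 h and 24 h the log2 change of Jun was 0.24 ± 0.10 and 0.33 ± 0.09 (unadjusted p = 0.0405 and 0.0047), and neither passed the test over all genes (limma adjusted p = 0.989 and 0.464). The successive steps of Jun were 0.09 from 12 h to 24 h, 0.27 from 24 h to 48 h and 0.32 from 48 h to 96 h on the log2 scale, and no single step passed the test (limma adjusted p = 1.00, 0.307 and 0.122). No member was called in any of these steps, against 0%, 1.67% and 8.64% of all genes, and 1, 1 and 2 members had an unadjusted p under 0.05 in limma (2.01%, 11.6% and 21.3% of all genes). The F test over the 4 times together called Jun (limma adjusted p = 0.0014) and Junb (0.0249), against 17% of all genes. The Jun call at 96 h was made in all 20 alternative settings, and the call at 48 h was lost in 1 of them, without replicate 2 of the 48 h group (0.52, limma adjusted p = 0.0867).

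Junb, a JUN protein that often counters JUN in growth control, was called by the F test alone. Its log2 levels were 4.95, 4.88 and 4.79 untreated, 5.04 and 4.88 after 12 h, 4.76, 4.66 and 4.68 at 24 h, 4.81 and 4.82 after 48 h, and 5.02 and 5.08 at 96 h. The 24 h arrays lay below all untreated arrays and the 96 h arrays above them. The log2 change was -0.17 ± 0.06 at 24 h (limma adjusted p = 0.543) and 0.18 ± 0.06 at 96 h (0.0853), and neither passed. Its call by the F test was lost with each of 8 alternatives. Among them were centred arrays (limma adjusted p = 0.0564), the filter on dim genes (0.0734) and robust moderation with a trend (0.141). The remaining ones each left out an array, which was 24 h replicate 2 (0.07), 24 h replicate 3 (0.0675), 48 h replicate 1 (0.0502), 96 h replicate 1 (0.076) or 96 h replicate 2 (0.106).

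Jund, the JUN gene that is expressed most steadily in resting cells, had the next largest change of the members at 96 h without passing the test. Its log2 levels were 6.37, 6.28 and 6.53 untreated, 6.81 and 6.38 after 12 h, 6.46, 5.85 and 6.77 at 24 h, 6.73 and 6.28 after 48 h, and 7.08 and 6.96 at 96 h. Only the 96 h group was clear of the untreated arrays, and replicates at 24 h spanned nearly a whole log2 unit. The log2 change at 96 h was 0.62 ± 0.25 (1.54-fold, 95% confidence interval 1.05 to 2.27, limma adjusted p = 0.117, n = 2 against 3). Jund was called at 96 h in 4 of the 20 alternatives. These were the fit to those 2 groups alone (limma adjusted p = 0.00597), the filter on dim genes (0.0495), the fit without 24 h replicate 2 (0.031) and the fit with the replicate number as a block (0.00647).

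The FOS genes showed no called change. Fos (cluster 10397346) had log2 levels of 4.34, 3.98 and 4.39 untreated, 4.30 and 4.50 after 12 h, 4.06, 4.03 and 4.62 at 24 h, 4.23 and 4.26 after 48 h, and 4.33 and 4.70 at 96 h. Treated and untreated arrays overlapped at every time, and all group means (4.24 to 4.51) lay within 0.5 log2 units of the background mark. The log2 change at 96 h was 0.28 ± 0.20 (fold 1.21, 95% confidence interval 0.893 to 1.64, limma adjusted p = 0.437), so a rise above 1.64-fold or a fall below 0.893-fold lies outside the interval, for a level to which background contributes.

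Fosb, which encodes a close relative of FOS and a truncated form known from brain, ranged from 4.53 to 4.97 in untreated cells and from 4.54 to 4.96 over all treated arrays. Its log2 changes were -0.01, -0.01, -0.05 and -0.08 at 12, 24, 48 and 96 h, each with a standard error of 0.13 or 0.14. Treated and untreated arrays overlapped at each time. At 96 h the 95% confidence interval of the fold was 0.759 to 1.19.

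Fosl1 encodes FRA1, the FOS protein that lasts longest after serum. It had log2 levels of 6.04, 6.22 and 6.17 untreated, 5.86 and 6.58 after 12 h, 6.38, 5.96 and 6.08 at 24 h, 6.09 and 6.25 after 48 h, and 5.80 and 5.91 at 96 h. At 96 h both arrays lay below the untreated ones, with a log2 change of -0.29 ± 0.19 (limma adjusted p = 0.389). It was called lower in 1 of 20 alternatives, the fit to those 2 groups alone (limma adjusted p = 0.0469).

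Fosl2, which encodes FRA2, had log2 levels of 6.25, 6.23 and 6.20 untreated, 6.48 and 6.36 after 12 h, 6.70, 6.27 and 6.06 at 24 h, 6.29 and 6.20 after 48 h, and 6.58 and 6.36 at 96 h. The arrays at 12 h and 96 h lay above all untreated arrays and those of 24 h lay on both sides of them. The log2 change was 0.19 ± 0.15 at 12 h and 0.24 ± 0.15 at 96 h (limma adjusted p = 0.989 and 0.373).

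Of the EGR genes among the 10 members, Egr2 (cluster 10363735), best known for its part in hindbrain and Schwann cell development, was called and Egr1 was not. Egr2 had log2 levels of 3.96, 3.74 and 3.87 untreated, 4.16 and 3.79 after 12 h, 4.08, 4.03 and 4.0 at 24 h, 4.22 and 4.09 after 48 h, and 4.50 and 4.26 at 96 h. All untreated arrays lay below the background mark of 4.04, and from 24 h on the treated arrays lay above all untreated ones. The Egr2 signal rose by 0.52 ± 0.12 at 96 h (log2, SE, limma adjusted p = 0.00919, n = 2 against 3). No fold is given for the transcript, since the untreated signal was not above background by that mark. The call was lost without 96 h replicate 1 (0.40, limma adjusted p = 0.0985) and made in the other 19 alternatives, and the F test over the 4 times did not call Egr2 (limma adjusted p = 0.0715).

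At 24 h and 48 h the log2 change of Egr2 was 0.18 ± 0.10 and 0.30 ± 0.12 (limma adjusted p = 0.707 and 0.185). Egr1, the EGR factor that serum induces most widely, had log2 levels of 6.17, 6.39 and 6.23 untreated, 6.40 and 6.13 after 12 h, 6.31, 5.99 and 6.31 at 24 h, 6.56 and 6.25 after 48 h, and 6.49 and 6.26 at 96 h. Every treated group overlapped the untreated arrays. The log2 change at 96 h was 0.11 ± 0.14 (fold 1.08, 95% confidence interval 0.872 to 1.34, limma adjusted p = 0.70).

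Ier2, an immediate early gene of a nuclear protein outside both families, had log2 levels of 4.74, 5.02 and 5.25 untreated, 5.26 and 5.22 after 12 h, 5.12, 4.94 and 5.50 at 24 h, 5.41 and 5.41 after 48 h, and 5.43 and 5.26 at 96 h. The arrays at 48 h and 96 h lay above all untreated arrays, at 96 h by a narrow margin. The log2 change was 0.41 ± 0.17 at 48 h (limma adjusted p = 0.222) and 0.34 ± 0.17 at 96 h (0.229), and neither passed. Untreated replicate 1 was the lowest untreated array for both Jun and Ier2.

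In all, 6 of 10 members had both 96 h arrays above and 1 had both below the untreated arrays, beside 23% and 21.4% of all genes. At 48 h 3 members lay above and 0 below, beside 15.7% and 25.2% of all genes. At 12 h 2 lay above and 0 below (6.35% and 11.7% of all genes), and at 24 h 2 above and 1 below (4.48% and 9.26%).

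**Figure D2:**
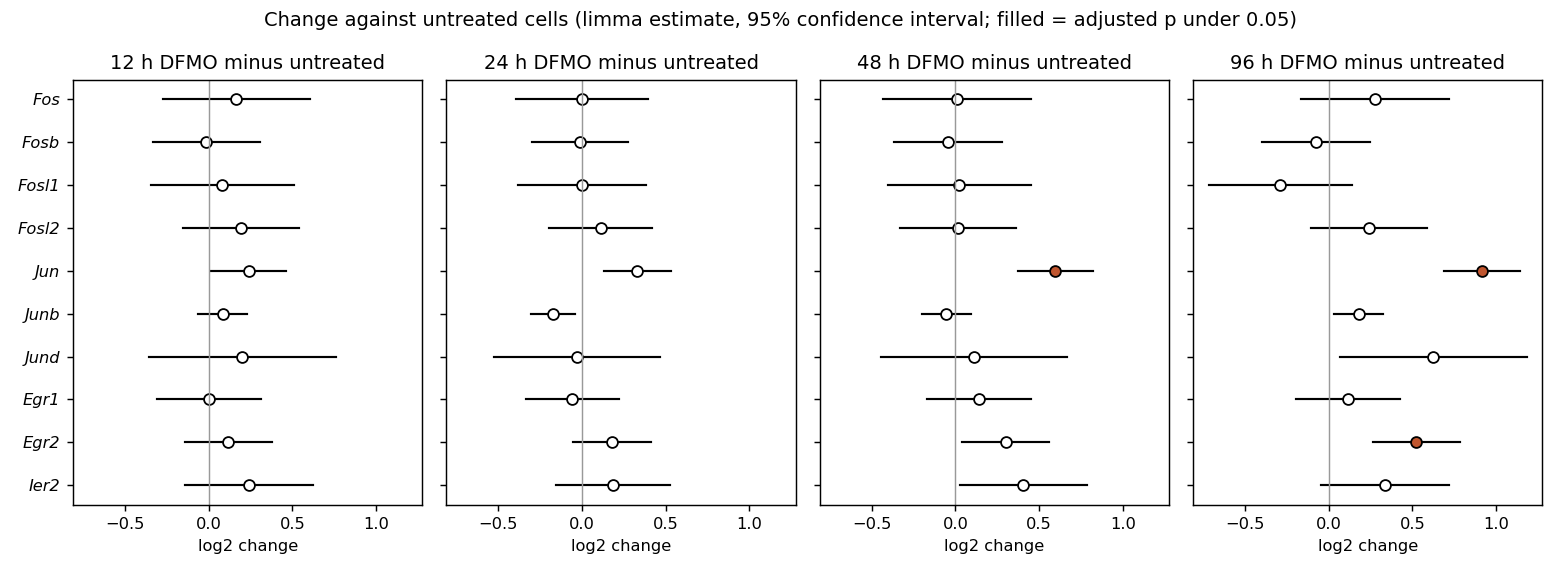
Log2 change against untreated cells (x axis) of the 10 genes (rows) at 12, 24, 48 and 96 h in DFMO, as limma estimates (points) with 95% confidence intervals (lines), filled where the adjusted p was under 0.05. The filled points are Jun at 48 h (0.60) and 96 h (0.92) and Egr2 at 96 h (0.52), and the intervals of Fos, Fosb and Egr1 include 0 at each time.

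The members differed in how closely replicates agreed. The residual SD within groups (7 degrees of freedom) was 0.07 log2 units for Junb, 0.12 for Jun and 0.14 for Egr2, against 0.24 for Fos and 0.31 for Jund. Jund was thus more variable between replicates than 97.3% of all genes and Fos than 92.8%. The deviations from group means of Jun and Ier2 correlated over the 12 arrays with r of 0.81 and those of Jund and Egr1 with r of 0.78. Those of Fosl1 and Egr2 correlated with r of -0.71. These are descriptions over arrays that share groups of 2 or 3, and they were picked as the extremes of 45 pairs. Array 24 h replicate 2 lay below its group mean for 9 of the 10 members, with a mean deviation of -0.15.

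The genes whose log2 levels followed those of a member most closely over the 12 arrays were Atp6v1b2, a subunit of the lysosomal proton pump, Zfp146 and Inip for Jun, with Pearson r of 0.96 each. For Fos they were Gosr2, Ss18l2 and Med27 (r of 0.93, 0.93 and 0.91), for Egr1 Dusp8, Trir and Ptprj (0.91, 0.89 and 0.87), and for Junb Frmpd1, Entpd8 and Chgb (0.88, 0.87 and 0.86). They are the 3 highest of 19937 other genes for each member, and the 12 arrays fall into 5 times that share the treatment.

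Other immediate early genes moved in both directions at 96 h. Of 40 measured, 8 rose and 5 fell, beside 11.8% and 10.1% of all genes, with a median log2 change of 0.00 in the list and 0.00 over all genes. The survival gene Mcl1 rose by 0.76 ± 0.08 (limma adjusted p = 0.000109), with mean log2 levels of 10.48 at 96 h and 9.71 untreated. Btg2, an antiproliferative gene, rose by 0.90 ± 0.13 (0.00102), and Klf6, a zinc finger factor, by 0.89 ± 0.12 (0.000571). At 48 h 2 rose and 0 fell (2.65% and 3.17% of all genes), Atf3 by 0.74 ± 0.15 (limma adjusted p = 0.0211) and Mcl1 by 0.37 ± 0.08 (0.0246). Each of these 48 h calls was lost when certain single arrays were left out (for Mcl1 untreated replicate 2 or 3 or either 48 h array, and for Atf3 untreated replicate 1 or 2 or 48 h replicate 1). At 96 h 4 rose and 3 fell without 96 h replicate 1, and 8 rose and 2 fell without 96 h replicate 2.

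Among 14 AP-1 partners and related factors with a basic zipper, 4 rose and 1 fell at 96 h, beside 11.8% and 10.1% of all genes, and the median log2 change was 0.01. Atf2, which pairs with JUN on octamers such as the one in the Jun window, rose by 0.82 ± 0.09 (limma adjusted p = 0.000209). Atf7, its close relative, rose by 0.83 ± 0.18 (0.00882). The stress-induced Atf3 rose by 0.72 ± 0.15 (0.00682) and Creb1, the factor that binds the CRE, by 0.39 ± 0.08 (0.00707). At 48 h Atf3 was the only one of the 14 called (1 higher and 0 lower, beside 2.65% and 3.17% of all genes). The counts at 96 h were 2 higher and 0 lower without 96 h replicate 1, where the calls of Atf3 and Creb1 ended, and 3 and 0 without 96 h replicate 2, where that of Atf7 ended.

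Of 17 kinases and serum response factor partners upstream of these genes that were measured, 4 rose and 3 fell at 96 h, beside 11.8% and 10.1% of all genes, with a median log2 change of -0.14. Mapk7, which encodes ERK5, a kinase that activates MEF2 factors, had mean log2 levels of 7.77 at 96 h and 6.87 untreated and rose by 0.90 ± 0.07 (limma adjusted p = 1.63e-05). Mrtfb, a coactivator of serum response factor, rose by 0.55 ± 0.11 (0.00426). Mapk14, which encodes the stress kinase p38 alpha, fell by 0.49 ± 0.09 (0.00404). At 48 h 1 rose and 1 fell (2.65% and 3.17% of all genes), and the rise, Mapk7 by 0.28 ± 0.07 (limma adjusted p = 0.0431), was lost in 13 of the 20 alternatives, among them leaving out any untreated, 48 h or 96 h array or 24 h replicate 3. The fall was that of Map2k1, named after its value was seen, which encodes the kinase MEK1 (-0.50, limma adjusted p = 0.0417), and 0 of the 17 fell at 48 h when any untreated, 48 h or 96 h array or 24 h replicate 2 was left out. Without 96 h replicate 1 the counts at 96 h were 3 higher and 1 lower, and without 96 h replicate 2 they were 4 and 1.

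A list of 15 attenuators held EGR corepressors, inhibitors of the inducing kinases, factors of transcript decay and ubiquitin ligases that act on JUN. Of these, 3 rose and 2 fell at 96 h, beside 11.8% and 10.1% of all genes (median log2 change 0.09). The fall of Nab1, a corepressor that binds EGR proteins and that EGR factors also induce, was the largest, with mean log2 levels of 6.58 at 96 h and 8.08 untreated. Nab1 fell by 0.76 ± 0.11 at 48 h (limma adjusted p = 0.0058, lost without 48 h replicate 2) and by 1.5 ± 0.11 at 96 h (1.49e-05). Dusp5, a phosphatase of nuclear ERK, fell by 0.49 ± 0.13 at 96 h (0.0259), and Spry1, an inhibitor of receptor signalling, rose by 0.32 ± 0.06 at 48 h (0.013, lost without either 48 h array) with a log2 change of 0.06 at 96 h (0.639). Fbxw7, which marks JUN protein for degradation, rose by 0.36 ± 0.10 at 96 h (0.0276), a call that ended in 6 alternatives, among them leaving out untreated replicate 1 or 2 or 96 h replicate 1, with a change of 0.15 in the mean of its clusters. The counts at 96 h of 3 higher and 2 lower were 0 and 1 without 96 h replicate 1. They were 3 and 1 when 96 h replicate 2 was left out, 0 and 2 for untreated replicate 1, 1 and 1 for untreated replicate 2, and 2 and 1 for untreated replicate 3. The call of Dusp5 ended when untreated replicate 2 or 3 or either 96 h array was left out.

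Genes known as AP-1 or EGR1 targets did not move in 1 direction. Of 19 AP-1 targets, Fosl1 among them, 3 rose and 4 fell at 96 h, beside 11.8% and 10.1% of all genes (median log2 change -0.07). Hmox1, heme oxygenase, rose by 1.17 ± 0.18 (limma adjusted p = 0.00102) and the metallothionein Mt1 by 0.90 ± 0.16 (0.00298). Hbegf, a growth factor that binds the EGF receptor, fell by 1.5 ± 0.26 (0.00233) and Ets1, a transcription factor, by 0.78 ± 0.11 (0.000576). The counts were 2 and 4 in the fit that left out 96 h replicate 1, and 3 and 2 in the fit that left out 96 h replicate 2.

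Of 14 EGR1 targets 3 rose and 1 fell at 96 h, beside 11.8% and 10.1% of all genes, and the fall was Nab1. Pdgfa, a platelet-derived growth factor chain, rose by 1.17 ± 0.14 (limma adjusted p = 0.000231), F3, tissue factor, by 0.88 ± 0.11 (0.000383) and the matrix protein fibronectin, Fn1, by 0.71 ± 0.12 (0.00176). F3 had also risen at 48 h, by 0.83 ± 0.11 (0.00348).

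**Figure D3:**
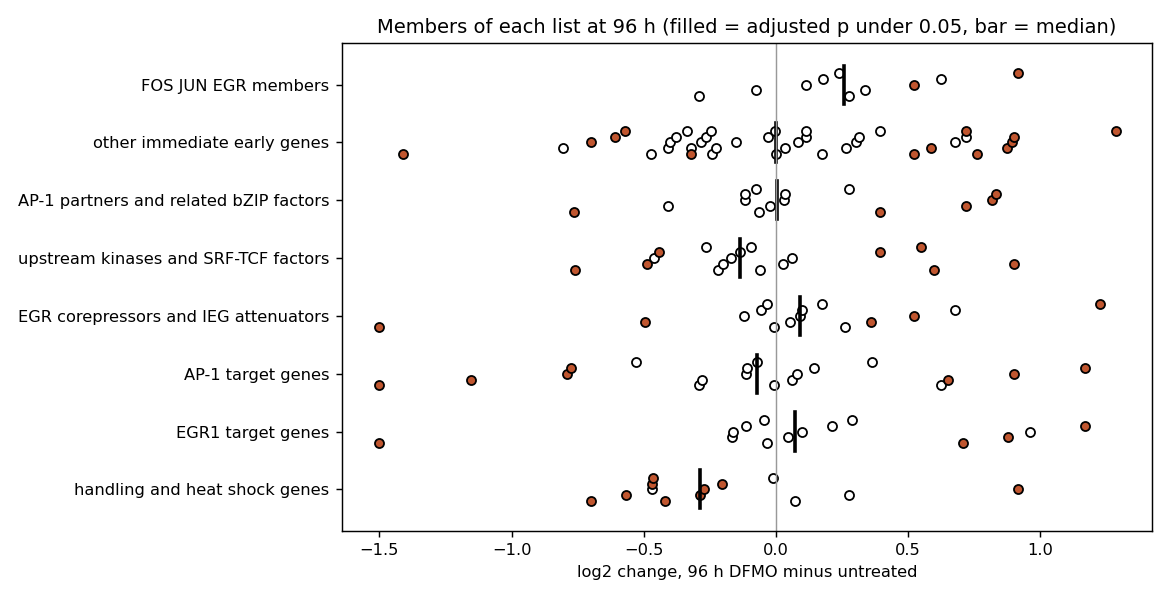
Log2 change at 96 h against untreated cells (x axis) of each measured gene (points, filled where the adjusted p was under 0.05) in the 10 members and 7 related lists (rows), with the median as a bar. Called genes lie on both sides of 0 in the related lists, and in the handling and heat shock list 8 genes fell and the 1 that rose is Jun.

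A list of 13 measured genes of cell handling and heat shock held Fos and Jun themselves. Of these 13, 1 rose, Jun, and 8 fell at 96 h, beside 11.8% and 10.1% of all genes (median log2 change -0.29). The part of handling in the changes of the members was not tested. The mitochondrial chaperonin Hspd1 fell by 0.70 ± 0.08 (limma adjusted p = 0.000215) and Hsp90aa1 by 0.47 ± 0.07 (0.00146). Bag3, a cochaperone, fell by 0.46 ± 0.11 (0.0104, lost without 96 h replicate 2) and Hspa8 by 0.21 ± 0.05 (0.0206, lost in 6 alternatives, among them leaving out untreated replicate 1 or 3 or either 96 h array). At 48 h Jun rose and 3 genes fell, beside 2.65% and 3.17% of all genes. The number of falls was 1 when untreated replicate 2 or 3 was left out, and it depended on both 48 h arrays. Leaving out untreated replicate 3 or 96 h replicate 1 left 4 of the 8 falls at 96 h in number, and leaving out 96 h replicate 2 left 2.

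At 48 h and 96 h the rise of Jun went along with a fall in genes of S phase and mitosis in these sorted G1 cells. At 12 h and 24 h Jun had log2 changes of 0.24 and 0.33, which were not called, and such genes had median changes of 0.09 and -0.03. Of 14 such genes 0 were called at 24 h, 13 fell at 48 h (median log2 change -0.85) and all 14 fell at 96 h (-3.15), beside 3.17% and 10.1% of all genes. Mcm6, a subunit of the replicative helicase, had mean log2 levels of 5.81 at 96 h and 10.42 untreated. Their part in the change of Jun was not tested. The count at 48 h was 6 in the fit that left out 48 h replicate 1 and 8 in that leaving out 48 h replicate 2.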

How the data were processed

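Each of the 12 samples of sorted G1 cells was hybridised to 1 whole-transcript array. The log2 values of 35399 transcript clusters were deposited by the authors and had been made with RMA and the Partek software per the submitters' processing notes, which give no versions. RMA makes array distributions alike, so a shift of all transcripts would be hidden. Clusters were named through the platform annotation, in which 21789 had 1 symbol, 1621 several and 11989 none, and of the first 21698 were found in RefSeq (GRCm38.p6) by Entrez identifier, with no symbol changed. In all 19938 genes were tested, with the highest-mean cluster where a gene had several (999 genes). No genome build for the array is stated in the sources used. Promoter windows are from RefSeq (GRCm38.p6).

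Group means over all 12 arrays were fitted in R 4.3.3 by lmFit and eBayes of limma 3.58.1, with default settings, and the scripts were tested on simulated data. Figures were drawn with matplotlib 3.10.9. The labels call the arrays biological replicates without naming separate cultures, so p-values measure the spread between these arrays, and their number limits the precision. Same-number arrays of 24 h and untreated cells deviated together (r of 0.15, 0.29 and 0.58 over genes). Arrays of unlike number did so too for 24 h replicate 2 with untreated replicate 1 (0.23) and 24 h replicate 1 with untreated replicate 2 (0.13). The remaining pairs of unlike number had negative r. Deviations from a group mean sum to 0 within the group, so these r values are linked and some negative ones are forced. They do not settle whether same-number arrays were paired, and the main fit used no pairing. The other times share only 2 numbers with untreated cells, with r from -0.25 to 0.19. The fit with the replicate number as a block was an alternative, besides centred arrays and a filter on dim genes. Others were all clusters, the mean of a gene's clusters, robust eBayes with trend, array weights, fits to 2 groups and leaving out each array.

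The members, the 12 other gene lists, written from general knowledge, and the tests were chosen with earlier results of these data known. Genes named were the 10 members, up to 4 genes of each list, taken by F test p, and for Fos, Jun, Egr1 and members called by the F test the 3 best correlated genes. Marker genes named singly were chosen after their values were seen. Lists overlap (Atf3, Creb1, Nab1, Dusp6, Fos and Jun, among others, are in 2), and some listed genes were not analysed here.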

Additional observations from a re-analysis of the deposited data

How the results depend on the processing

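With 2 or 3 arrays a group, single arrays decide several of these results. Of the 1400 recomputed values, 68 of uncalled changes took the other sign, each of 0.23 log2 units or less as first fitted and with limma adjusted p of 0.812 or more afterwards. No called change of a member did. This was largely fixed beforehand, since treated arrays all lay above untreated ones for the called changes, so leaving out an array cannot turn their sign. The dim filter, cluster, trend and 2-group settings also return the same log2 change for members with 1 cluster. Called members at 48 h numbered 2 with array weights and 2 with the replicate block (Jun and Ier2 in both), and 0 to 1 when an array was left out. At 96 h there were 4 in the fit to 2 groups, 4 with the replicate block (Jun, Egr2, Jund and Ier2) and 1 to 3 without an array. The F test called 1 member with centred arrays, 1 with the dim filter, 5 with the replicate block and 1 to 3 without an array, and 96 h against 48 h called 1, Junb, with array weights. Over all genes, 11 passed at 24 h with all clusters tested, and 2194 at 48 h with array weights, against 375 to 1265 without an array. The step from 24 h to 48 h had 217 with all clusters, 521 with array weights, 61 in the fit to 2 groups and 67 to 418 without an array. That from 48 h to 96 h had 748 to 1849 without an array, and the F test 2023 to 3577. The causes of these differences were not tested. With array weights at 48 h more of all genes were called too, 2194 against 1160 in the main fit. For the fit to 2 groups at 96 h and for the replicate block at 48 h, 96 h and in the F test, only members were counted here. Without the share of all genes called in the same setting, these member counts are not a result about the members as a set. For 24 h, where all 3 replicate numbers are shared with untreated cells, the replicate block called 0 genes and changed no call. Whether arrays of the same number are paired is not known for any time. Levels near background limit Fos and Egr2 in particular. The signal of Fos lay little above the background mark of 4.04, and that of untreated Egr2 lay below it (mean 3.85).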
